A study of Mus musculus with 6 samples.

Results

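Large-subunit cytosolic ribosomal protein genes encode the proteins of the larger of the subunits that make up the ribosomes translating cytosolic mRNA. They were taken here as the genes of the deposited table named Rplp0, Rplp1, Rplp2, or Rpl with a number and at most a closing a. Paralogs with an l after the number, such as Rpl22l1 and Rpl3l, were left out. The rule found 46 of 17971 genes, and all 46 had enough counts to be tested. RNA-seq was made from dorsal root ganglia, the clusters of sensory neurons and glia beside the spinal cord, of mouse embryos at E13.5. The 3 cKO samples had the genotype Wnt1-cre+/-;Ybx1fl/fl, in which Cre is driven by Wnt1, a gene of the dorsal neural tube and of neural crest precursors, from which ganglion neurons and glia descend. The 3 Ctrl samples came from Ybx1fl/fl littermates without Cre, so the floxed Ybx1 alleles were common to both groups and no sample used here had Cre and intact Ybx1. All samples are described as male, and the samples of both groups as biological replicates numbered 1 to 3. The labels do not say whether ganglia of 1 embryo or of several went into a sample. Blood and vessel cells do not descend from the crest, so their Ybx1 is not deleted by this Cre.

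The Ybx1 protein carries a cold-shock domain, coats mRNA and influences how stable and how well translated it is. The large subunit joins amino acids into protein at the peptidyl transferase centre, and the new chain leaves through an exit tunnel. Beside the factor-binding site stands a flexible stalk, made of Rplp0 at its base and of Rplp1 and Rplp2 dimers, which recruits the elongation factors. The mRNAs of ribosomal proteins typically begin with a 5′ terminal oligopyrimidine (TOP) tract, an unbroken run of C and T letters that couples their translation to mTOR signalling. Ribosomal proteins are made in matched amounts, and cells degrade those that are not built into ribosomes.

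Promoter windows are shown for 4 genes that were lower in cKO and 3 that were not, so that the C and T runs around their starts can be read side by side. Each window runs from 60 bases before the start in the promoter table to 20 bases from it, 5′ to 3′ on the strand of the gene, and comes from RefSeq on GRCm38.p6. Capitals mark the longest unbroken run of C and T anywhere in the window, which need not be the TOP tract. For Rpl7a the start in that table lies downstream of the first base of the annotated gene, 26910685.
Rplp0, chr5:115559407-115559486, plus strand: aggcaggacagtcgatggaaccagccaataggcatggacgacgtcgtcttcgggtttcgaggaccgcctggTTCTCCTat
Rpl13, chr8:123102290-123102369, plus strand: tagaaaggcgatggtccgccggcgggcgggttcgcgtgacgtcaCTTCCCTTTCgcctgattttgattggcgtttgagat
Rpl4, chr9:64173327-64173406, plus strand: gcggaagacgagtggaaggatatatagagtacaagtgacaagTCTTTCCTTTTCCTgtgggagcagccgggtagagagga
Rpl7a, chr2:26910747-26910826, plus strand: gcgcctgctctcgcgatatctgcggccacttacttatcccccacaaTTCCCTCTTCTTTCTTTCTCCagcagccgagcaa
Rplp2, chr7:141447591-141447670, plus strand: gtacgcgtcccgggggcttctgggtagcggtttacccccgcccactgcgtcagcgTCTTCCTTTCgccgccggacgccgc
Rpl11, chr4:136053374-136053453, minus strand: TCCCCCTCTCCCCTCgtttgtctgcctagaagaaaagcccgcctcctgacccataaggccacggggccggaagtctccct
Rpl39, chrX:37085203-37085282, minus strand: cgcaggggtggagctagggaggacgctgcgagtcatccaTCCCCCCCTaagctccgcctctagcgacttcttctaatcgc
The longest run held 7 letters in Rplp0, 10 in Rpl13, 14 in Rpl4 and 21 in Rpl7a, against 10 in Rplp2, 15 in Rpl11 and 9 in Rpl39. The run lay after the start in Rplp0, across it in Rpl7a and Rplp2, and before it in Rpl13, Rpl4, Rpl39 and Rpl11. In Rpl11 it began at the first base of the window, so it may be cut there. A window was found for 34 of the 46 genes, and 22 of them (64.7%) had a run of 8 or more letters, against 34.5% of the 27025 genes with a window. Among the genes called lower in the model with the replicate number, 5 of 8 had such a run, and among the others 17 of 26. The letters CCGGAAG, the core bound by ETS factors, stood on either strand of the full 300-base promoter in 14 of the 34 genes (41.2%), against 9.93% of all genes with a window. They were found in 1 of the 8 genes called lower and in 13 of the 26 others. The genes with a window were not limited to those tested here. These matches describe letters only, and the start used in these ganglia was not measured.

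The large-subunit genes took a slightly smaller share of the reads in each cKO library than in the Ctrl library of the same number. Together they held 2.30%, 1.91% and 1.91% of the counts in cKO replicates 1, 2 and 3, against 2.43%, 2.08% and 2.14% in Ctrl replicates 1, 2 and 3. The groups overlapped, because cKO replicate 1 lay above Ctrl replicates 2 and 3. Per transcript length, in the deposited TPM values, the same genes made up 8.83%, 8.21% and 8.35% of the total in the cKO libraries and 9.44%, 8.75% and 8.87% in the Ctrl libraries. In TPM the groups overlapped too, with cKO replicate 1 between Ctrl replicates 2 and 3.

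**Figure D1:**
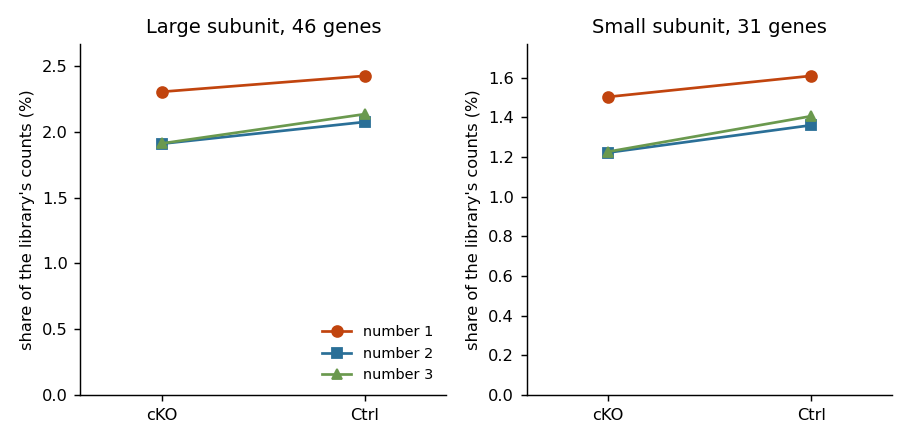
Share of all counts in a library, in percent, taken by the 46 large-subunit genes (left) and, for comparison, by 31 small-subunit genes (right). Points are single libraries, cKO left and Ctrl right, and lines join libraries of the same replicate number; the large-subunit share is 1.91% to 2.30% in cKO and 2.08% to 2.43% in Ctrl, and number 1 is the highest of its group in both panels.

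Gene by gene, the differences were small, mostly in the same direction, and none passed the test that ignores the replicate number. In edgeR's quasi-likelihood test on all 14338 genes, 0.481% of genes were called at an adjusted p under 0.05, and 0.37% of genes were called lower in cKO. Of the 46 large-subunit genes 0 were called. Without adjustment 4 of the 46 had p under 0.05, all lower in cKO, near the 6.1% of all genes tested that were lower at that p. DESeq2 called 1 of the 46, Rplp0, as lower, against 0.907% of all genes. The median log2 fold change was -0.13, a negative number meaning lower in cKO, with an interquartile range of -0.16 to -0.06. Over all genes tested the median was 0.00. The fold change was negative for 40 of the 46 genes, against 48.6% of all genes tested.

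Samples with the same replicate number were taken as pairs. With the number as a block, 11 large-subunit genes were lower and 0 higher at an edgeR adjusted p under 0.05. In that model 5.33% of all genes tested were called, 3.56% lower and 1.76% higher. Among the 11 were Rplp0, Rpl13, Rpl7, Rpl10, Rpl4, Rpl18, Rpl7a, Rpl15, Rpl10a and Rpl8. Within all 3 numbers, 35 of the 46 genes were lower in cKO, against 20.3% of all genes tested, and 2 were higher in all 3, against 19.6%. In CPM, counts scaled to library size with TMM factors, only Rplp0 had every cKO library below every Ctrl library, against 8.77% of all genes tested, and 0 genes of the family had the opposite order, against 7.83%. In TPM that held for 23 of the 46 genes, against 5.77% of all genes tested, and 1 gene, Rplp2, had every cKO library above every Ctrl library, against 8.34%. The count of genes called lower depended on the libraries and on the scaling and offset used. It was 23 with the block and without number 1 (5.1% of all genes), 3 without number 2 (1.28% of all genes), 5 without number 3 (3.84% of all genes), 6 with library totals (2.81% of all genes), and 27 when an offset took in GC content and transcript length together (4.85% of all genes). Without number 1 and without the block, 16 were lower (3.13% of all genes).

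**Figure D2:**
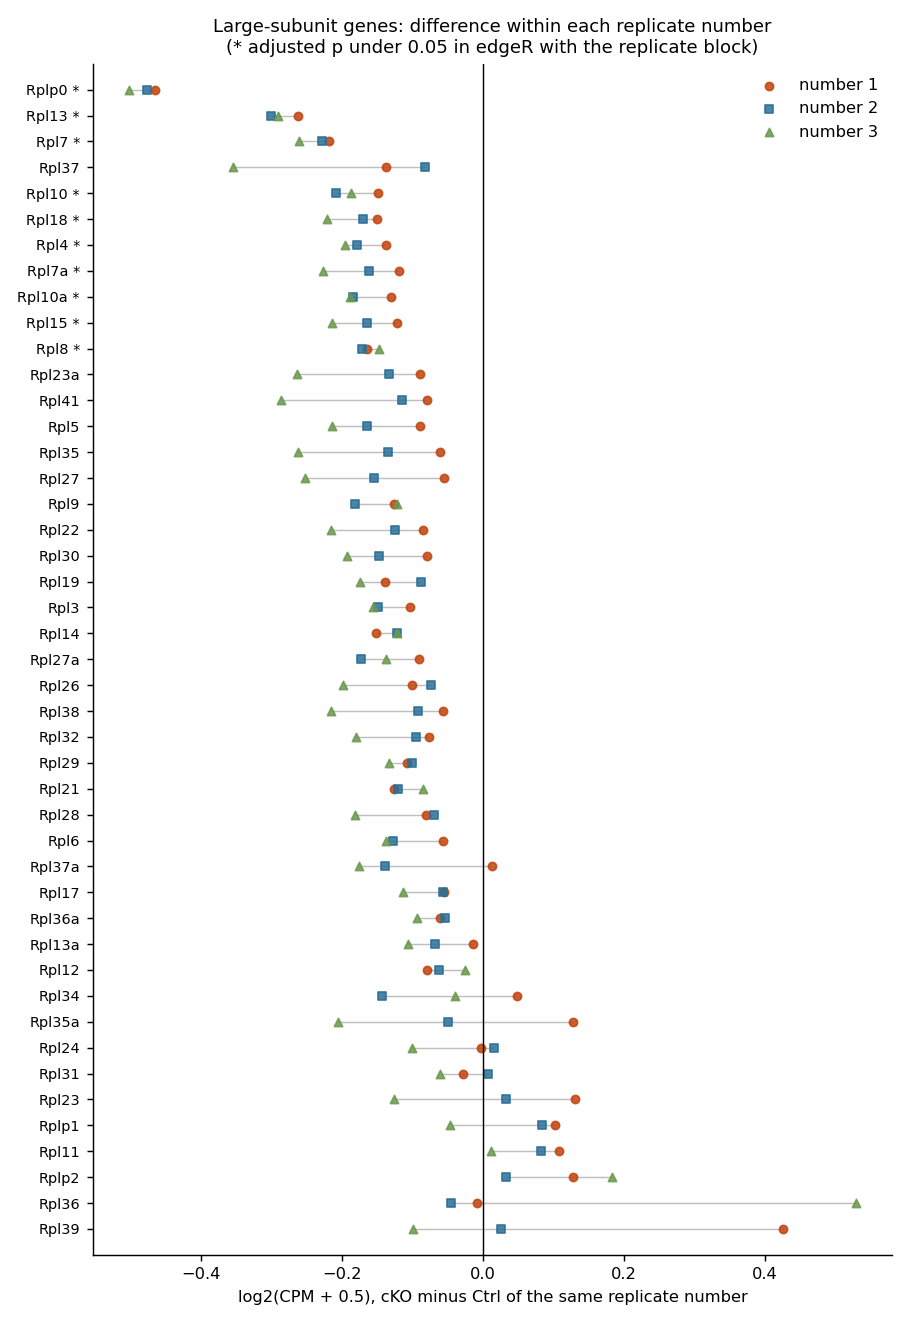
Difference in log2(CPM + 0.5), cKO minus Ctrl, within each replicate number for 45 of the 46 genes, ordered by fold change from the most negative at the top. Circles, squares and triangles are numbers 1, 2 and 3, and asterisks mark the 10 of these genes called in edgeR with the replicate block; 34 genes have all 3 points left of 0, and Rplp0 is the farthest left at -0.46 to -0.50.

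The 3 stalk genes did not move together. Rplp0 (chromosome 5, 115559467 to 115563729, GRCm38.p6), the base of the stalk, had 1085, 875 and 880 CPM in the cKO libraries, against 1498, 1217 and 1247 CPM in the Ctrl libraries. The mean was 947 ± 120 CPM in cKO and 1321 ± 154 CPM in Ctrl (SD, n = 3 each), 28.3% lower in cKO. The log2 fold change was -0.48 (SE 0.11), with an edgeR adjusted p of 0.0826 without the block and 5.51e-06 with it. Within numbers 1, 2 and 3 the log2 difference was -0.46, -0.48 and -0.50. Rplp0 was called lower in all 7 fits with a block, as was Rpl13, and its log2 fold change was -0.59 to -0.38 over the 25 alternatives run.

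Rplp1, one of the 2 acidic proteins bound to Rplp0, had 485, 379 and 374 CPM in cKO, against 452, 357 and 387 CPM in Ctrl, and the groups overlapped. The log2 difference was 0.05 with an SE of 0.11 and did not pass (edgeR adjusted p 0.925). Rplp2, its partner in the dimer, had 209, 173 and 177 CPM in cKO, against 192, 170 and 156 CPM in Ctrl, and its difference of 0.12 on the log2 scale (SE 0.09) did not pass in edgeR (adjusted p 0.752, or 0.218 with the block). On the TPM scale Rplp2 averaged 1987 ± 64.9 in cKO and 1797 ± 142 in Ctrl (SD, n = 3 each), so the separation of the groups in TPM came with no call in edgeR.

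Within a library, the level of Rplp0 relative to Rplp1 and to Rplp2 differed between the groups by far more than between replicates. Rplp0 stood at 0.375, 0.384 and 0.385 times the TPM of Rplp1 in the cKO libraries, and at 0.556, 0.564 and 0.549 times in the Ctrl libraries. On the log2 scale this ratio was -1.39 ± 0.02 in cKO and -0.85 ± 0.02 in Ctrl (SD, n = 3 each). The 2 groups of 3 did not overlap (exact two-sided permutation p 0.1, the smallest that 3 against 3 can give). The ratio of Rplp0 to Rplp2 was 0.816, 0.787 and 0.762 in cKO and 1.23, 1.12 and 1.28 in Ctrl (exact two-sided permutation p 0.1), while that of Rplp1 to Rplp2 overlapped between the groups (exact two-sided permutation p 0.5). Being taken within a library, these ratios do not depend on library scaling. The ratios with Rplp0 carry its lower level in cKO given above, so they are not separate evidence. The permutation did not use the replicate number. The order of the stalk genes was thus Rplp1, Rplp2, Rplp0 per length in cKO, and Rplp1, Rplp0, Rplp2 in Ctrl.

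**Figure D3:**
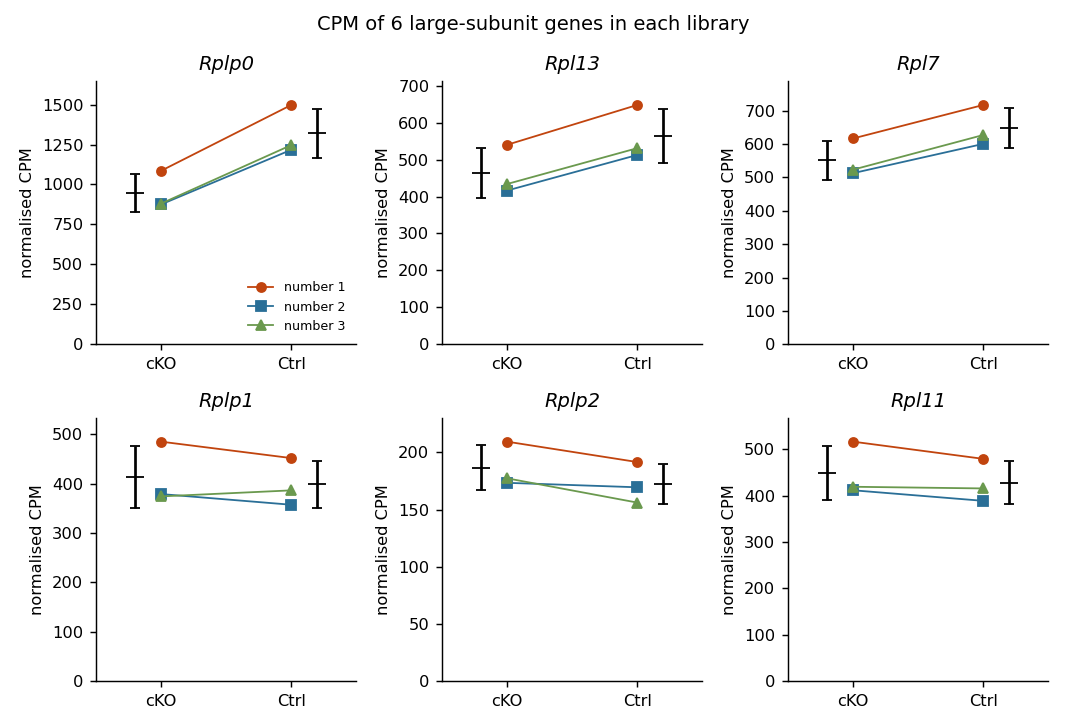
Normalised CPM in each library (points, joined by replicate number; cKO left, Ctrl right) with the group mean and SD (black bars, n = 3) for Rplp0, Rpl13 and Rpl7 (top) and Rplp1, Rplp2 and Rpl11 (bottom). All 3 lines rise towards Ctrl in each top panel. The groups do not overlap for Rplp0 and overlap in every other panel, Rpl13 and Rpl7 included. Number 1 is the highest of each group in every panel.

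Rpl13 and Rpl7 were among the genes with the most negative fold changes after Rplp0. Rpl13, whose human counterpart is mutated in a skeletal dysplasia, had 540, 416 and 434 CPM in cKO, against 648, 513 and 531 CPM in Ctrl. It was lower in cKO by 0.26, 0.30 and 0.29 on the log2 scale in numbers 1, 2 and 3, and the model with the block gave -0.28 with an SE of 0.04 (edgeR adjusted p 0.00115). Counts of Rpl13 had fractions in all 6 libraries, a sign of reads that the authors' software shared among genes. Rpl7 had 617, 513 and 523 CPM in cKO, against 717, 601 and 627 CPM in Ctrl, with -0.24 and an SE of 0.04 in the same model (edgeR adjusted p 0.0042). Of the 7 fits with a block, Rpl7 was called in all except the one without number 2.

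A further 7 genes called with the block sit at several working parts of the subunit. Rpl10, which joins the subunit late and borders the tRNA sites, had 953, 823 and 805 CPM in cKO, against 1057, 951 and 916 CPM in Ctrl. The blocked value was -0.18 with an SE of 0.04 (edgeR adjusted p 0.0178), and Rpl10 overlapped between groups in CPM but not in TPM. Rpl4, which helps line the exit tunnel and was the highest of the family in mean CPM over the 6 libraries, averaged 1071 ± 104 CPM in cKO and 1204 ± 93.5 CPM in Ctrl (SD, n = 3 each), with a blocked edgeR adjusted p of 0.0222. Rpl8, near the peptidyl transferase centre, was lower in cKO by 0.17, 0.17 and 0.15 on the log2 scale in the 3 numbers (blocked edgeR adjusted p 0.037). Rpl10a, the protein of the other mobile stalk of the subunit, had a blocked value of -0.17 with an SE of 0.04 (edgeR adjusted p 0.0363). Rpl7a, Rpl15 and Rpl18 had blocked log2 fold changes of -0.17, -0.17 and -0.18. All 7 calls were lost in the model without the block (edgeR adjusted p 0.527 to 0.649). With the block they were lost without number 2, and without number 3 that of Rpl10 held. With the block and library totals those of Rpl10 and Rpl4 held.

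The most abundant transcripts per length, Rplp1 among them, did not pass the threshold. Rpl41, which encodes a very short basic peptide, was the highest of the family with 6449, 5750 and 6039 TPM in cKO, against 6919, 6146 and 6835 TPM in Ctrl. Rpl38, needed in mice for translation of certain Hox mRNAs, averaged 4822 ± 292 TPM in cKO and 4968 ± 160 TPM in Ctrl (SD, n = 3 each). Rpl35 and Rpl23a, both at the mouth of the exit tunnel, had 4131 ± 149 and 3993 ± 135 TPM in cKO, and 4483 ± 94.2 and 4388 ± 65.6 TPM in Ctrl (SD, n = 3 each). These 4 genes had blocked log2 values of -0.12 to -0.16, with an edgeR adjusted p of 0.0542 to 0.208. Rpl41, Rpl35 and Rpl23a were called lower in 3 alternatives: without number 1, with or without the block, and with the block and the length and GC offset. Over the family, mean TPM ran from 204 for Rpl22 to 6356 for Rpl41.

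Positive fold changes were found for 6 genes: Rpl39, Rpl36, Rplp2, Rpl11, Rplp1 and Rpl23. Rpl39, part of the tunnel wall, had 105, 73.7 and 67.7 CPM in cKO, against 78.3, 72.3 and 72.6 CPM in Ctrl, so that cKO replicate 1 stood above the other 5 libraries. Without cKO replicate 1 its log2 fold change was -0.07. Rpl36 had 110, 84.9 and 94.2 CPM in cKO, against 111, 87.7 and 65.1 CPM in Ctrl, and Ctrl replicate 3 was the lowest library. Without Ctrl replicate 3 its log2 fold change was -0.04, against 0.13 (SE 0.17) with all libraries, and the blocked model without number 1 called it higher (0.24, edgeR adjusted p 0.0361). Rpl39 and Rpl36 also had the fewest counts of the family. Rpl11, named after its values were seen, had 517, 412 and 419 CPM in cKO, against 480, 389 and 416 CPM in Ctrl. It was higher in cKO within each number, by 0.11, 0.08 and 0.01 on the log2 scale, and did not pass (blocked edgeR adjusted p 0.447). Rpl5, which binds the same small ribosomal RNA as Rpl11 and with it restrains Mdm2, had a log2 difference of -0.09, -0.16 and -0.21 in the 3 numbers (blocked edgeR adjusted p 0.0557).

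The ordering of the genes by their difference was alike in the 3 pairs, which share no library. Across the 46 genes, the cKO minus Ctrl differences of numbers 1 and 2 had a Spearman correlation of 0.77, those of 1 and 3 one of 0.55, and those of 2 and 3 one of 0.61. Without Rplp0 they were 0.75, 0.52 and 0.59. Over the 3339 other genes at least as high in CPM as the lowest member, the same correlations were 0.48, 0.20 and 0.56. These are descriptions across genes, which share their libraries and are not independent replicates, and length and base composition are shared by both axes. Genes with more counts had the more negative fold changes (Spearman -0.46 with mean CPM over 46 genes, -0.42 without Rplp0). With mean TPM the correlation was -0.08, and with transcript length -0.33. The 23 genes above the family's median CPM had a median of -0.15 on the log2 scale and 9 calls with the block. The 23 below it had -0.11 and 2 calls. All these calls were lower in cKO, against 3.56% of all genes tested called lower. The calls also depend on precision: the blocked SE was 0.09 for Rpl39 and 0.11 for Rpl36, against 0.04 for Rplp0.

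**Figure D4:**
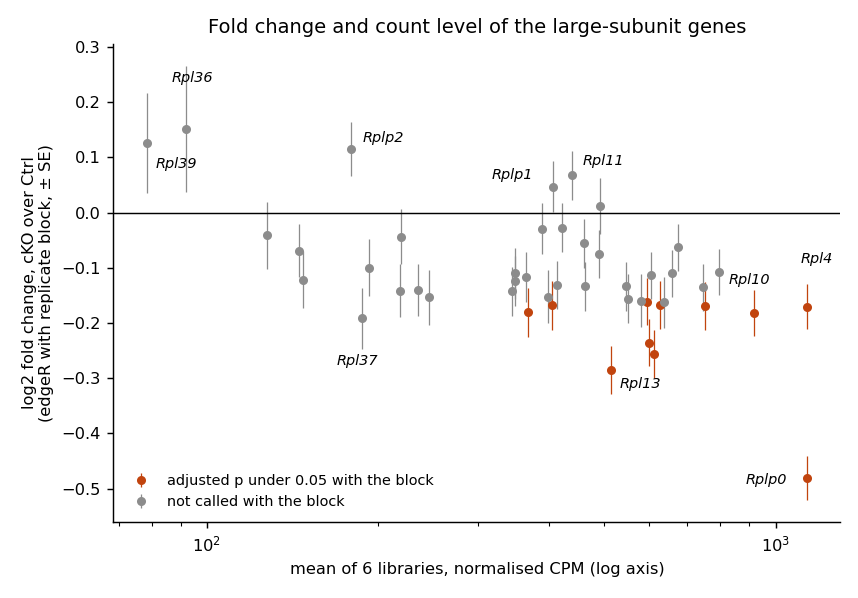
Log2 fold change of cKO over Ctrl from edgeR with the replicate block (± SE) against the mean CPM of the 6 libraries on a log axis, 1 point for each of the 46 genes. The 11 called genes (red) lie at 367 CPM or more, Rplp0 is lowest at -0.48, and Rpl39 and Rpl36 at the left have the widest SE.

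Genes were also grouped by conservation and position. Of the 46 proteins, 18 have a counterpart in bacteria and 28 do not. The median of the 18 was -0.15 on the log2 scale, with 6 called lower with the block, and that of the 28 was -0.11, with 5 called lower. Over all genes tested 3.56% were called lower with the block. Of 8 genes whose proteins lie around the exit tunnel, 7 had negative values and Rpl4 was called with the block. The 31 small-subunit genes had the same median, -0.13 on the log2 scale, as the large-subunit genes. With the block 12 of these 31 were lower and 0 higher, against 3.56% and 1.76% of all genes tested. In CPM 5 of the 31 had every cKO library below every Ctrl library, against 8.77% of all genes tested. The difference between the subunits was not tested.

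Genes that work beside the large subunit were described by list. Of 9 elongation factor genes, 2 were called lower without the block and 4 with it, against 0.37% and 3.56% of all genes tested. These 4 were Eef2 and Eef1g, and, with the block only, Eef1a1 (log2 fold change -0.26) and Eef1b2 (-0.35). Eef2, which binds the stalk to move the ribosome along, had 2269, 2266 and 2281 CPM in cKO, against 3110, 2907 and 3043 CPM in Ctrl. Of 12 other TOP mRNAs 4 were lower with the block and 0 higher, against 3.56% and 1.76% of all genes tested. The 4 were Vim (log2 fold change -0.17), Tpt1 (-0.16), Eif3h (-0.18) and Eif4b (-0.17). Of 30 genes for assembly and export of the large subunit, 1 was lower and 1 higher with the block, against 3.56% and 1.76%. Their median was 0.03. The higher one was Eif6, which keeps the subunits apart until assembly is done (0.25 on the log2 scale, with a blocked edgeR adjusted p of 0.0164). The lower one was Nop53, at -0.21 (blocked edgeR adjusted p 0.0376).

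Near-identical copies limit how finely reads can be assigned in this family. Processed pseudogenes of ribosomal protein genes are many, and 21 of the 46 genes had a fractional estimated count in at least 1 library. The table held 13 further rows named after a member, and in 9 of them the counts stayed below 10% of that member's in all libraries. Rpl36al had 40.5% to 49.5% of the counts of Rpl36a, and Rpl37rt had 6.90% to 19.7% of those of Rpl37. As a share of their member's counts, Rpl37rt, Rpl13-ps6 and Rpl17-ps8 were highest in replicate 1 of each group. None of the rows that could be tested was called with the block. Among the 11 genes called with the block, counts of Rpl13, Rpl7a and Rpl15 had fractions in all 6 libraries and those of Rpl10 in 2, so their values are less certain. Counts of the other 7, Rplp0 among them, were whole in every library. Rplp2, and with it the ratios taken to Rplp2, also rests on counts with fractions in all 6 libraries, as do Rpl41 and Rpl5, and Rpl23a had fractions in 4.

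Library totals ran from 16464264 to 17446385 counts, and Ybx1 checked the labels, with 137, 122 and 108 CPM in cKO and 927, 809 and 817 CPM in Ctrl (log2 fold change -2.80). Neuron markers, among them Isl1, Pou4f1, Prph, Avil and Tubb3, and glial markers, among them Sox10, Fabp7, Erbb3 and Foxd3, were present in all libraries. The libraries numbered 1 stood apart. All 46 large-subunit genes were higher there than in the mean of numbers 2 and 3 of the same group, by a median log2 difference of 0.27 in cKO and 0.22 in Ctrl. Of the 14292 other genes tested, 7186 were higher in number 1 in cKO and 7118 in Ctrl. The small-subunit genes shared the shift, with 30 of 31 higher in number 1 in each group. The 6 erythroid markers summed to 8447, 2068 and 3362 CPM in cKO and 3610, 2524 and 3638 CPM in Ctrl. Replicate 1 of cKO was highest of all libraries in these, and among the cKO libraries in ribosomal protein genes. Among the Ctrl libraries, replicate 1 was highest in ribosomal protein genes and replicate 3 in the erythroid sum. A link between them was not tested. The 6 macrophage markers summed to 71.5 to 105 CPM in cKO and 54.1 to 64.0 CPM in Ctrl, and all 6 had positive fold changes, with Mpeg1 called higher. The 6 glial markers summed to 1301 to 1401 CPM in cKO and 1198 to 1302 CPM in Ctrl. With the block 3 of the 6 were called higher, Sox10 among them, against 1.76% of all genes tested. The 6 neuron markers summed to 6338 to 6419 CPM in cKO and 6054 to 6629 CPM in Ctrl. With the block 2 of the 6 were called lower (Isl1 and Avil), against 3.56% of all genes tested. The 6 markers of cycling progenitors summed to 470 to 509 CPM in cKO and 448 to 489 CPM in Ctrl, with 0 called with the block. Endothelial sums were 352 to 391 CPM in cKO and 372 to 383 CPM in Ctrl, and mesenchymal sums 1340 to 1459 CPM in cKO and 1205 to 1424 CPM in Ctrl. Skeletal muscle markers summed to at most 8.25 CPM in cKO and 7.17 CPM in Ctrl. Spinal cord markers summed to 2.71, 2.92 and 4.84 CPM in cKO replicates 1, 2 and 3, and to 1.98, 1.67 and 2.14 CPM in Ctrl. The top of the cKO range was thus cKO replicate 3 alone. Only 2 of these 6 spinal cord markers could be tested: Pax6 was called higher, and the other had a negative fold change. Pax6 rested on few counts, 13, 18 and 15 in cKO and 3, 3 and 4 in Ctrl. The part of cell composition in the ribosomal protein values was not tested. In bulk tissue, fewer cells of a type and less RNA per cell cannot be told apart, and neither can loss of Ybx1 and presence of Cre.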

How the data were processed

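Per the file headers, each library has an estimated count, a TPM value and an FPKM value for every gene. The estimated counts the authors deposited carry no normalization. The TPM values deposited are scaled by transcript length to a fixed total, and the FPKM values deposited by length and mapped reads. The submitters' processing notes name RSEM 1.3.1, HISAT2 2.2.1 and Bowtie2 2.4.5, with GRCm38 (mm10), and give no role or order. Per the labels' protocols, RNA was extracted with Trizol for mRNA libraries. The labels do not state strandedness. FPKM served as a check on libraries alone: sums were 614728 in cKO replicate 1 and 590156 in Ctrl replicate 1, and 548068 to 551964 in the other 4. Totals were 16464264 to 17446385 counts.

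Counts were rounded to whole numbers and filtered with filterByExpr, leaving 14338 genes and removing 3633. In the main comparison, libraries were scaled by TMM and tested without the replicate number by edgeR's quasi-likelihood method (version 4.0.16, R 4.3.3). Tests were two-sided, and p-values were adjusted over all genes by Benjamini-Hochberg and called under 0.05. SEs were derived from the fold change and its F statistic. Differences within a number are on the log2(CPM + 0.5) scale. Both groups are numbered 1 to 3 in the titles and controls are described as littermates. After subtracting group means, the cKO and Ctrl libraries of numbers 1, 2 and 3 correlated across genes at 0.38, 0.22 and 0.19, each above the 0.1 required, so the numbers were taken as pairs. Libraries of unlike numbers were not correlated for comparison, and the check used the same libraries as the blocked fit. Blocked values are given where they change a call or a count. On simulated counts for the 14338 genes of cKO against Ctrl, the model without the block recovered 86% of genes changed 1.3-fold and 98% of those changed 1.5-fold, with 4% false calls; the blocked model recovered 76% and 98%, with 5.08% false calls. Smaller changes were not simulated, and changed genes were drawn only from those above a floor on mean counts. For the model without the block, the simulated libraries had no differences between replicate numbers. Their spread between replicates was also below the 7.79% that this model estimated in the real libraries. Its recovery in the real data is therefore lower than these values. Length and GC content came from the longest GENCODE M21 transcript (98.1% of genes tested matched). Alternatives used DESeq2 1.42.0 and limma 3.58.1. Figures used matplotlib 3.10.9 in Python 3.11.15.

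Named genes were the stalk genes, members called with or without the block, the 5 highest in TPM, the 3 most positive and the 3 most negative; Rpl11, Rpl5 and Rpl23 are additions. Some genes that this rule or the marker lists name are not reported here by name, and they stay in the counts and sums. The members and lists were chosen with earlier results of these data known.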

Additional observations from a re-analysis of the deposited data

How the results depend on the processing

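Without the replicate block, 0 large-subunit genes were called by edgeR with TMM, DESeq2 size factors, library totals, TMM without ribosomal protein genes or at least 1 CPM in every library, and 0 by limma-voom. In each of these 6 fits 3 or 4 of the 46 had an unadjusted p under 0.05. Over all genes that was 1469 of 13362 with at least 1 CPM in every library, and 1527 to 1574 of 14338 otherwise. Rplp0 alone, a count of 1, was called with the DESeq2 test, with no filter, and with limma on log2(TPM + 1) or log2(TPM + 0.1). On these TPM scales 22 of the 46 had an unadjusted limma p under 0.05, against 1228 and 1220 of 14338 genes. With the replicate block 11 were called, with TMM without ribosomal protein genes 11, with library totals 6, and with the length and GC offset 27. Leaving out libraries gave 0 to 16 without the block (16 without number 1), and 3, 5 and 24 with the block without numbers 2, 3 and 1. Over all genes 69 were called, against 44 with library totals (63.6% lower, against 76.8%), 183 with the DESeq2 test (835 adjusted p not given), 128 with no filter and 15 on either TPM scale. With the block 764 were called (66.9% lower), 768 with TMM without ribosomal protein genes, 799 with library totals (50.4% lower) and 1063 with the offset. Leaving out libraries gave 2 to 731 without the block, and 260, 836 and 1252 with it without numbers 2, 3 and 1.

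The family median of -0.13 was negative in all 25 alternatives, between -0.21 without cKO replicate 1 and -0.060 without Ctrl replicate 1. Relative to the median of all genes it was -0.14 with TMM and with library totals. Of the 19 genes named by rule, 3 changed sign. Rplp1 was -0.082 without cKO replicate 1 and -0.025 without Ctrl replicate 2 (up to 0.15). Rpl36 was -0.041 without Ctrl replicate 3, -0.025 without number 3 and -0.027 so with the block (up to 0.33). Rpl39 was -0.074 without cKO replicate 1, -0.035 without number 1 and -0.036 so with the block (up to 0.27). The cause was not tested. Estimated counts carry the authors' sharing of reads among copies, and p-values measure the spread between these 6 samples.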
